A study of Mus musculus with 18 samples.

Results

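The genes described here are 8 genes of Schwann cells, the glia of peripheral nerve, taken by symbol from a table of 14521 named genes. They were Mbp, Prx, Sox10, Pmp22, Cnp, Mal, Egr2 and Scn7a, and their expression values were not part of the rule that chose them. Earlier results of these data were known, however, when the genes were chosen. Of the 8 genes, 7 were measured, and Sox10 was not analysed here. RNA was sequenced from the skin of 6 female littermates of the outbred SKH-1E Hairless strain, which lacks the Hairless gene and readily forms skin tumours under ultraviolet radiation. Each mouse gave 1 sample of non-lesional chronically irradiated skin (CHR), 1 papilloma (PAP) and 1 cutaneous squamous cell carcinoma (SCC), which made 18 libraries with n = 6 in each group. All mice had received the same chronic exposure from solar simulators, so that the CHR libraries are irradiated controls and no unirradiated skin enters the comparisons. The reads counted on genes, as recovered from the deposited values, were at least 15.4 M per library, with a median of 18.9 M.

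Schwann cells either wrap single axons in myelin or hold bundles of thin axons without myelin, and skin contains both kinds in its dermal nerves and around its sensory endings. Myelination is switched on by the transcription factors Sox10 and Egr2, which drive the genes of the compact sheath. Mbp, Pmp22 and Mal encode proteins of compact myelin, Prx encodes periaxin, a scaffold of the outer Schwann cell membrane, and Cnp encodes an enzyme of the non-compact channels of myelin. Scn7a encodes a sodium channel protein that senses sodium concentration and is made by non-myelinating Schwann cells. Several of these genes also work outside nerve. Pmp22 was first met as a growth arrest gene of fibroblasts, Mal sorts proteins in epithelial cells, Egr2 is induced in T cells and macrophages, and the Mbp locus also makes the golli transcripts of immune cells, which a value per gene does not separate.

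The promoters of the members were searched for the core binding words of the 2 transcription factor families named above, because 3 members, Egr2 among them, fell together in the lesions. The words were GCGTGGG and GCGGGGG for the EGR family and ACAAAG and ACAATG for the SOX family, each read on both strands in the 300 bases around a RefSeq transcript start (build GRCm38.p6). An EGR word stood in 14.7% of 32851 promoters and a SOX word in 28.6% of them. Promoters of 6 measured members were at hand, and those of Mbp and Sox10 were not used here. Of these 6, Egr2, Scn7a, Prx and Cnp held an EGR word, while Mal, the 4 starts of Pmp22 and the other 4 starts of Egr2 held neither word. The shares above are per promoter, whereas this count is per gene over all its starts, so the 2 are not on one scale. The 4 promoters with an EGR word are shown, since they include the factor itself and the member with the deepest fall. They lie at chr10:67535249-67535548 on the + strand (Egr2, the first of its 5 starts), chr2:66784861-66785160 on the - strand (Scn7a), chr7:27499074-27499373 on the + strand (Prx) and chr11:100574689-100574988 on the + strand (Cnp). Capitals mark the matches, and CCCACGC is GCGTGGG read on the other strand.
Egr2: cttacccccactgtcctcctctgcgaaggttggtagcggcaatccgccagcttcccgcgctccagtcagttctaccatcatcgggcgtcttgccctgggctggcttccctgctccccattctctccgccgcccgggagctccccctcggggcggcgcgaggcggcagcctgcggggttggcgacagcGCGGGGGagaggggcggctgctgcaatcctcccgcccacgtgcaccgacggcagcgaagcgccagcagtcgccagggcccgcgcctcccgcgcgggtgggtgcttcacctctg
Scn7a: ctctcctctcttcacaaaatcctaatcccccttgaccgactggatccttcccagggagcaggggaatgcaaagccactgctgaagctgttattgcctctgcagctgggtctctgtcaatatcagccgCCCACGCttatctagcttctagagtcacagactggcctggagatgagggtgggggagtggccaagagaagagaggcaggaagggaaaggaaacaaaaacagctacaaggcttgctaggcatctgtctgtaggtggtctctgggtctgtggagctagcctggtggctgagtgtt
Prx: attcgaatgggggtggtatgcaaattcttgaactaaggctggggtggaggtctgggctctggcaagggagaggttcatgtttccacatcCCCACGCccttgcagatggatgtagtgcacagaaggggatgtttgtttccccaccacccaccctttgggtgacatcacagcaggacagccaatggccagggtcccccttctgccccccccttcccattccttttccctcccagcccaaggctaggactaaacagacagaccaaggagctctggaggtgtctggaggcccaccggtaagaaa
Cnp: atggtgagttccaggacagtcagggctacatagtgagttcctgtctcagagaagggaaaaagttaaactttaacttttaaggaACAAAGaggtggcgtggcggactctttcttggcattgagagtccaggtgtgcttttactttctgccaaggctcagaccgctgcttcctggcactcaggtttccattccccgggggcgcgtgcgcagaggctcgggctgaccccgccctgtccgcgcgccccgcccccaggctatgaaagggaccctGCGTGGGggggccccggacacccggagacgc
The EGR word began 63 bases before the Egr2 start, 123 before that of Scn7a and 161 before that of Prx, and it began at base 20 of the Cnp transcript. The SOX word of Cnp, ACAAAG, began 167 bases before the start and did not overlap the EGR word. These matches describe letters only. The members that moved most were split, in that Egr2 and Scn7a held an EGR word and Pmp22 did not.

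Pmp22, Scn7a and Egr2 were far lower in papillomas and carcinomas than in irradiated skin, whereas Mbp did not pass the test and the mean of Mal was higher in both lesion types without passing it. Levels are given as normalised reads, that is, reads recovered from the deposited values and divided by the library's size factor. Fold changes are on the log2 scale of the deposited values, which understates changes of low genes. They come from limma with the mouse as a block, and a gene was called at an adjusted p under 0.05 over 14521 genes. In PAP vs CHR, 5 of 7 members were called lower and 0 higher, where 29.3% of all genes tested were called lower and 23.3% higher. With limma-voom on the recovered reads it was 4 lower and 1 higher, as Prx was lost (adjusted p = 0.0649) and Mal gained (adjusted p = 0.0346). The median log2 fold change of the members was -0.87, against 0.00 over all genes. In whole tissue, fewer cells of a type and less RNA per cell cannot be told apart. The plot of the members by library shows every value.

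**Figure D1:**
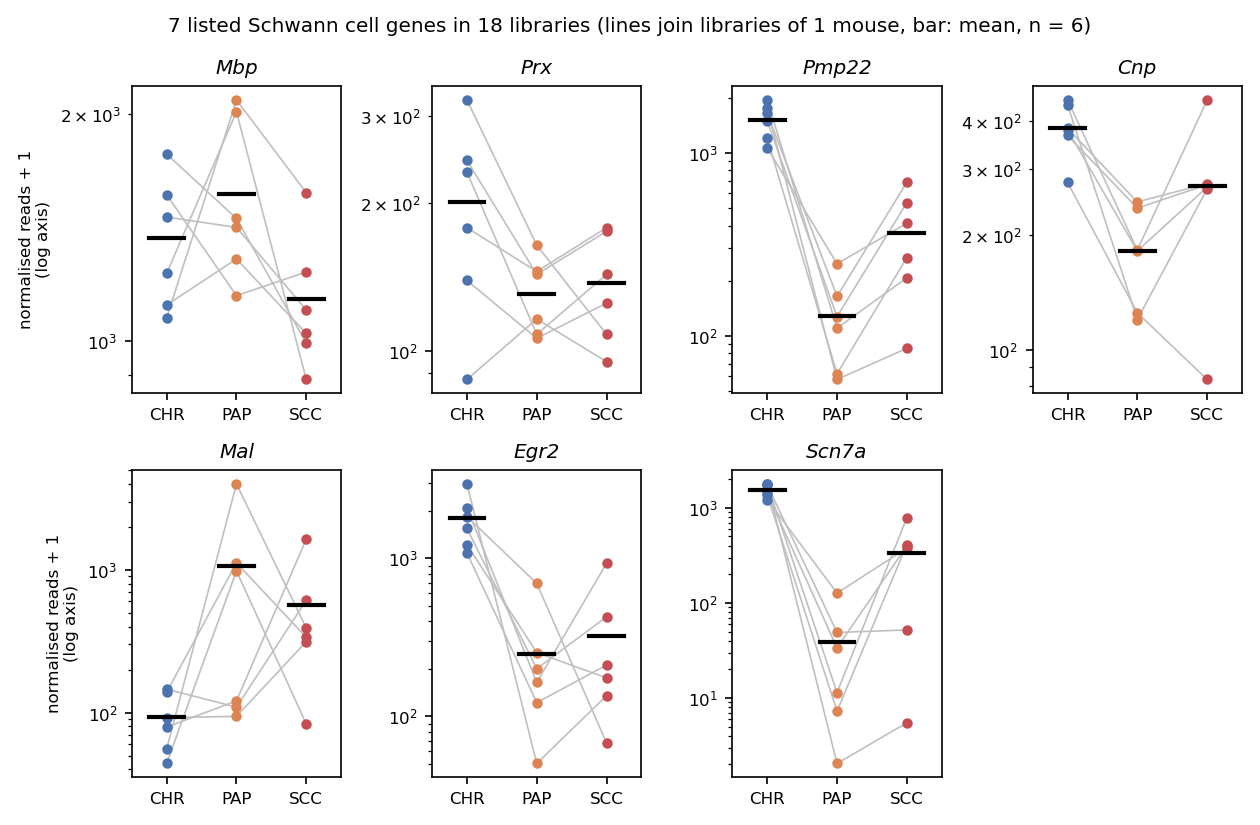
Normalised reads + 1 (log axis, scaled separately for each gene) of the 7 measured members in CHR, PAP and SCC. Points are libraries, grey lines join the 3 libraries of 1 mouse and black bars are group means (n = 6). For Pmp22, Scn7a and Egr2 all 6 CHR points lie above every lesion point, and the Mal points of PAP run from 93.0 to 3995 reads.

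Scn7a (66673425 to 66784914 on chromosome 2, GRCm38), the sodium sensor of non-myelinating Schwann cells, showed the largest log2 fold change of the members. Its normalised reads ran from 1221 to 1783 in CHR (median 1585), from 1.05 to 126 in PAP (median 21.6) and from 4.48 to 786 in SCC (median 386). The CHR libraries were all above the lesions, with no overlap, and the lowest lesions of both kinds came from mouse 10. The mean was 41.6-fold lower in PAP than in CHR (78.9-fold without the papilloma of mouse 2, the highest at 126), with a log2 fold change of -4.24 ± 0.50 (SE, n = 6 mice, limma adjusted p = 1.76e-05). On reads, limma-voom put the same change at -5.86 ± 1.12. In SCC the mean was 4.60-fold below CHR, with a log2 fold change of -2.48 ± 0.50 (limma adjusted p = 0.00200).

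Pmp22, the tetraspan protein of compact myelin whose gene dosage causes inherited neuropathies, fell as well. The gene spans 63128982 to 63159547 of chromosome 11. Its normalised reads were 1063 to 1943 in CHR (median 1569), 56.6 to 246 in PAP (median 117) and 84.2 to 689 in SCC (median 339). Skin and lesions did not overlap, and all 6 mice had the order CHR above SCC above PAP. The log2 fold change was -3.07 ± 0.29 in PAP vs CHR (limma adjusted p = 3.44e-06), an 11.9-fold lower mean. Against CHR, SCC stood at -2.02 ± 0.29 (limma adjusted p = 0.000228), a 4.15-fold lower mean.

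Egr2, the zinc finger factor that starts myelination, lies at 67535475 to 67542188 on chromosome 10 and had a mean of 1787 ± 683 normalised reads in CHR (SD, n = 6). The range was 1081 to 2954 in CHR (median 1690.3), 49.3 to 693 in PAP (median 181) and 66.8 to 928 in SCC (median 192). Even the highest lesion, the SCC of mouse 7, was below the lowest skin. The log2 fold change was -2.73 ± 0.47 in PAP vs CHR (limma adjusted p = 0.000367) and -2.49 ± 0.47 in SCC vs CHR (limma adjusted p = 0.00142). The mouse that ranked highest in skin, mouse 10, had the lowest papilloma.

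Cnp, at 100574904 to 100591729 on chromosome 11, showed a smaller change. Its normalised reads ran from 275 to 454 in CHR (median 380.4), from 119 to 244 in PAP (median 182) and from 82.4 to 453 in SCC (median 269). PAP and CHR did not overlap, while the SCC range held nearly the whole of the CHR range. In PAP vs CHR the log2 fold change was -0.87 ± 0.17 (limma adjusted p = 0.000829), and the mean was 2.12-fold lower. The SCC vs CHR change was -0.50 ± 0.17 (limma adjusted p = 0.0320). SCC was lower in 6 of 6 mice, though in mouse 7 by almost nothing (453 against 454). This change missed the threshold in limma-voom (adjusted p = 0.0799) and without mouse 10 (-0.36, limma adjusted p = 0.0999). Exons of Cnp overlap Dnajc7 on the opposite strand, and the strand setting of the counting is not given in the sources used here, so reads of the pair may not be fully separated.

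Prx, the periaxin gene at 27499324 to 27520214 on chromosome 7, lay at the edge of the test. Its normalised reads were 86.4 to 323 in CHR (median 204), 105 to 163 in PAP (median 129) and 94.0 to 177 in SCC (median 133), so that all 3 groups overlapped. PAP was below CHR in 5 of 6 mice, with a log2 fold change of -0.39 ± 0.15 (limma adjusted p = 0.0488). Of 16 alternative settings, 5 kept this call, and the adjusted p reached 0.165 without mouse 3. The SCC vs CHR change was -0.34 ± 0.15 (limma adjusted p = 0.0923). An antisense gene, Gm15541, overlaps Prx and was not measured apart from it.

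Mbp, the major cytoplasmic protein of compact myelin, did not pass the test in any comparison. Normalised reads were 1072 to 1767 in CHR (median 1343), 1147 to 2085 in PAP (median 1433) and 888 to 1571 in SCC (median 1060.4). All groups overlapped, and PAP was higher in 3 mice and lower in 3. The log2 fold change was 0.17 ± 0.18 in PAP vs CHR (limma adjusted p = 0.431), -0.43 ± 0.18 in SCC vs PAP (limma adjusted p = 0.152) and -0.25 ± 0.18 in SCC vs CHR (limma adjusted p = 0.276).

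Mal, at 127633226 to 127656695 on chromosome 2, encodes a lipid raft protein of myelin and of epithelial apical membranes, and its level had the widest relative spread between papillomas, with a coefficient of variation of 141%. Normalised reads were 43.0 to 145 in CHR (median 84.7), 93.0 to 3995 in PAP (median 551) and 82.1 to 1639.9 in SCC (median 363). The papillomas of mice 2, 7 and 10 lay at 982, 1119 and 3995, and those of mice 3, 8 and 9 at 108, 93.0 and 119.8, within the skin range. PAP was above CHR in 5 of 6 mice, with a log2 fold change of 1.83 ± 0.74 that missed the threshold (limma adjusted p = 0.0526) and passed it in limma-voom (2.66 ± 0.97, adjusted p = 0.0346). It was called under 5 of 16 alternatives, and without mouse 10 it was 1.18 (limma adjusted p = 0.189). SCC was above CHR in 6 of 6 mice at 1.65 ± 0.74 (limma adjusted p = 0.0959). Of 16 alternatives, 1 called this change, the fit of the CHR and SCC libraries alone (limma adjusted p = 0.00915). The exact permutation test that flips the sign within each mouse gave p = 0.0312 there, the smallest that 6 mice allow.

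**Figure D2:**
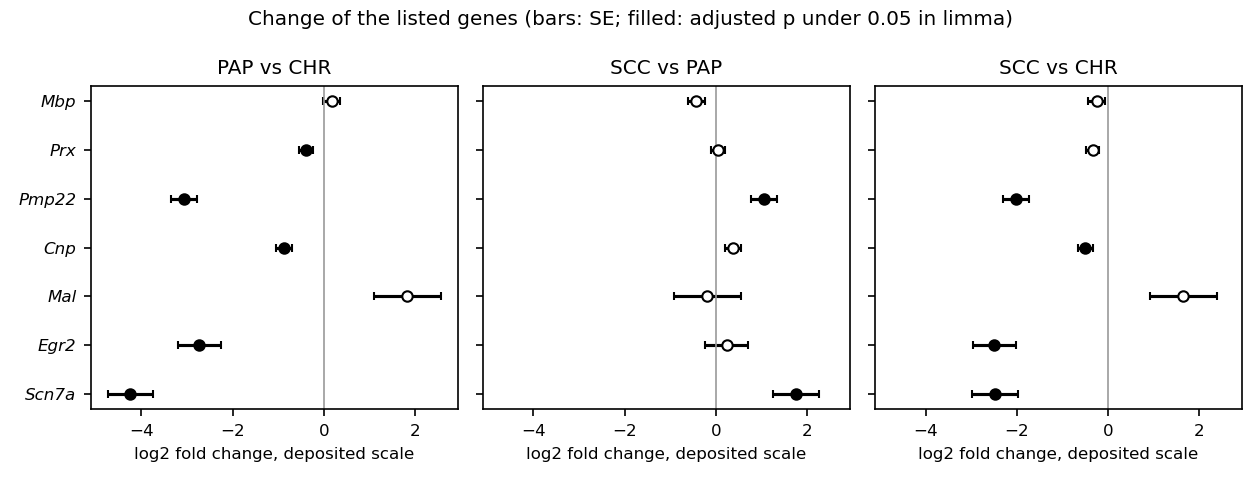
Log2 fold change of each measured member on the deposited scale in PAP vs CHR, SCC vs PAP and SCC vs CHR, with bars for the SE and filled points for an adjusted p under 0.05 in limma. Scn7a, Pmp22 and Egr2 sit below -2 in both comparisons with CHR, and Mal is the one member at 1.65 or above in both.

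In SCC vs CHR, 4 of 7 members were called lower and 0 higher, with 22.7% of all genes called lower and 15.8% higher. The median of the members was -0.50, against -0.02 over all genes. This comparison shares its CHR libraries with PAP vs CHR, so both are given as values side by side.

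Between the lesion types, Pmp22 and Scn7a were higher in SCC than in PAP. Of the 7 members, 2 were called higher and 0 lower, where 8.75% of all genes were called higher and 1.10% lower. Pmp22 changed by 1.05 ± 0.29 (limma adjusted p = 0.0378) and Scn7a by 1.76 ± 0.50 (limma adjusted p = 0.0418), each in 6 of 6 mice. Both calls are fragile. None of the members was called in limma-voom, without the mouse block, with the 12 libraries of the 2 groups alone, or without mouse 3, 7 or 8, though both changes kept their sign in each of these. Egr2 and Cnp differed by 0.24 ± 0.47 and 0.37 ± 0.17 (limma adjusted p = 0.803 and 0.192).

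Within the carcinomas the members did not all rank alike. The carcinoma of mouse 7 was the highest of the 6 for Pmp22, Scn7a, Egr2 and Cnp, at 689, 786, 928 and 453 normalised reads. That of mouse 10 was the lowest for Pmp22, Scn7a, Cnp and Prx, at 84.2, 4.48, 82.4 and 94.0. For Mbp the order was different, since mouse 10 had the highest carcinoma at 1571.

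Per kilobase of exon, the order of the members changed between skin and lesions. In CHR the mean levels were 644 normalised reads per kb for Pmp22, 526 for Egr2, 212 for Scn7a, 161 for Mbp, 105 for Cnp, 35.8 for Prx and 33.0 for Mal. Each gene stood above the next in at least 5 of 6 mice, except Prx over Mal, which held in 4. In PAP the mean of Mal was 385 per kb and that of Mbp 185, but the pair could not be ordered, as Mal exceeded Mbp in 3 of 6 mice and its mean was 174 without the papilloma of mouse 10. Scn7a was last at 5.09, or 2.68 without the papilloma of mouse 2. Egr2, Pmp22 and Cnp, at 72.4, 53.9 and 49.7 per kb, could not be ordered either, as each exceeded the next in 3 mice, and Egr2 was at 46.1 without the papilloma of mouse 9. In SCC, Mal, Pmp22 and Mbp had means of 202, 155 and 134 per kb with no settled order, each above the next in 3 of 6 mice, and Mal was at 125 without the carcinoma of mouse 9.

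Other genes of Schwann cells were then set beside the members. They were taken from lists chosen for their known roles, though with earlier results of these data known. Their counts are to be read beside the shares of all genes called. These were 29.3% lower and 23.3% higher in PAP vs CHR, and 22.7% lower and 15.8% higher in SCC vs CHR. For SCC vs PAP they were 1.10% lower and 8.75% higher. Mag, which encodes an adhesion protein between the myelin sheath and the axon, was detected in all 6 CHR libraries. It ran from 42.2 to 124 normalised reads in CHR, from 0 to 8.06 in PAP and from 0.895 to 81.8 in SCC. PAP and CHR did not overlap, and the carcinoma of mouse 7 was the highest lesion, as for Scn7a, Pmp22 and Egr2. Other markers did not share this peak. The highest lesion was the carcinoma of mouse 2 for S100b and that of mouse 8 for Cdh19, both described below. The log2 fold change of Mag was -1.30 ± 0.16 in PAP vs CHR on the compressed deposited scale (limma adjusted p = 2.61e-05) and -3.99 in limma-voom.

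Of 16 measured genes of myelin and the node of Ranvier, in PAP vs CHR 13 were called lower and 2 higher, with a median log2 fold change of -1.14. The largest changes were those of Fa2h, the fatty acid hydroxylase of myelin lipids, which sebaceous glands also use (-4.19), and Nfasc, which builds the node (-2.75). Kcna1, a potassium channel beside the node, changed by -1.94. The 2 called higher were Cd9 (0.54) and Cadm4 (0.54), an adhesion protein of the internode. For SCC vs CHR, 9 were called lower and 1 higher. In SCC vs PAP, 0 were called lower and 2, Mag (0.57) and Nfasc (1.15), higher. The counts in limma-voom were 12 lower and 1 higher for PAP vs CHR, then 7 lower and 1 higher for SCC vs CHR. It made 0 calls for SCC vs PAP, where Mag and Nfasc had adjusted p-values of 0.0711 and 0.0807.

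**Figure D3:**
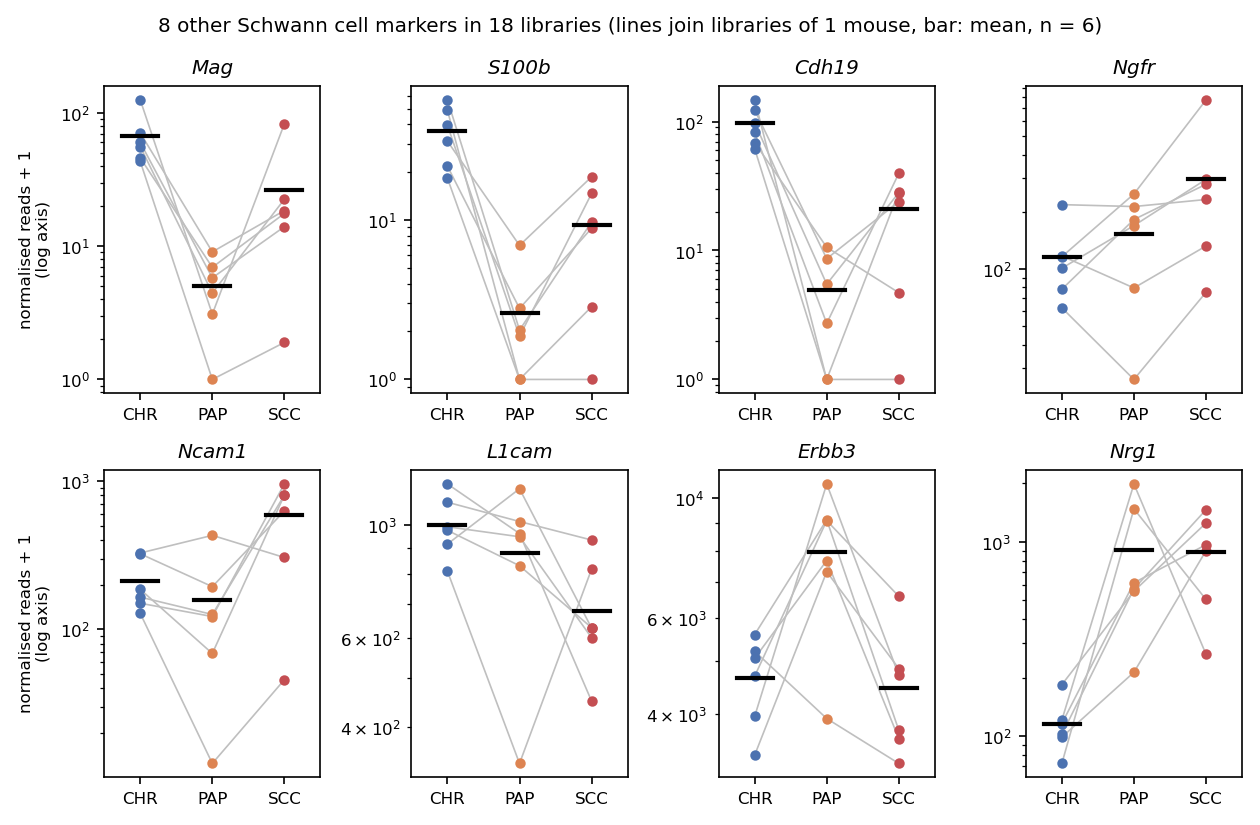
Normalised reads + 1 (log axis, scaled separately for each gene) of 8 Schwann cell markers outside the members in CHR, PAP and SCC. Points are libraries, grey lines join libraries of 1 mouse and black bars are means (n = 6). Mag, S100b and Cdh19 drop from CHR to PAP and Nrg1 is higher in PAP, each without overlap, while the PAP and CHR points of Ngfr, Ncam1, L1cam and Erbb3 overlap.

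Among 12 measured genes of non-myelinating and immature Schwann cells, PAP vs CHR gave 5 called lower and 1 higher. S100b, the calcium binding protein used as a Schwann cell stain, went from 35.0 ± 15.1 to 1.61 ± 2.23 normalised reads (SD, n = 6; -1.06, limma adjusted p = 2.61e-05). Cdh19, a cadherin of the Schwann cell lineage, went from 95.8 ± 33.2 to 3.90 ± 4.04 (-1.67, limma adjusted p = 1.00e-05). The neurotrophin receptor gene Ngfr (0.19), Ncam1 (-0.53), L1cam (-0.24) and Gap43 (0.08) were not called. The gene called higher was Sox2 (1.80, limma adjusted p = 0.0258), a stem cell factor also used by epithelia, which was not called in limma-voom (adjusted p = 0.0549). In SCC vs CHR, 5 were called lower and 2 higher, and in SCC vs PAP 0 lower and 1, Ncam1 (1.49), higher, a call not made in limma-voom (adjusted p = 0.129). The PAP vs CHR counts in limma-voom were 4 lower and 0 higher.

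Of 13 measured regulators and signals of Schwann cells, 7 were called lower and 3 higher in PAP vs CHR. Zeb2, a repressor needed for myelination, changed by -3.21 ± 0.32 (limma adjusted p = 5.54e-06). Lgi4, a secreted Schwann cell ligand, changed by -2.14 ± 0.27, and its receptor gene Adam22 by -1.79 ± 0.30. Nrg1, the axonal growth factor that sets myelin thickness, was higher by 2.13 ± 0.46 (limma adjusted p = 0.00179), as were its receptor gene Erbb3 (0.72 ± 0.21) and Nab1 (0.90 ± 0.13), a corepressor of EGR factors. Pou3f1, the factor ahead of Egr2 in myelination, was not called (0.48 ± 0.38, limma adjusted p = 0.307). In SCC vs CHR, 4 were called lower and 2 higher, and in SCC vs PAP 1 lower and 4 higher. With limma-voom, PAP vs CHR gave 4 lower and 3 higher, SCC vs CHR gave 3 lower and 2 higher, and SCC vs PAP gave 1 of each.

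Genes used as textbook markers of Schwann cells, which include the axonal factor Nrg1, did not all move one way. Of 13 textbook markers outside the members, PAP vs CHR gave 5 called lower, Mag, S100b and Cdh19 among them. Another 3 were called higher, namely Nrg1, Erbb3 and Jun, and 5 were not called. Over all genes, 29.3% were called lower and 23.3% higher. Erbb3 and Jun had CHR means of 4644 and 2260.1 normalised reads, against 35.0 for S100b and 95.8 for Cdh19. The members that fell most also stood far above S100b and Cdh19 in CHR, at 1787 for Egr2, 1552 for Scn7a and 1515 for Pmp22. Which cells made the reads of Nrg1, Erbb3, Jun and the members was not tested. Of the 7 members, 5 were called lower and 0 higher in limma, and 4 lower and 1 higher in limma-voom. Those called in limma were Pmp22, Scn7a, Egr2, Cnp and, at the edge of the threshold, Prx, while Mbp and Mal were not called. In limma-voom Prx was not called and Mal was called higher.

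Genes of other cell types moved with the members. Of 16 skeletal muscle genes, 16 were called lower in PAP vs CHR, and their summed level was 411362 to 618452 normalised reads in CHR, 358 to 31007 in PAP and 545 to 205093 in SCC. In SCC vs PAP, 15 of them were called higher (6 in limma-voom). Of 5 myeloid genes, 5 were called lower in PAP, with sums of 30133 to 49799 in CHR and 979 to 6595 in PAP, and 5 higher in SCC vs PAP (4 in limma-voom). Of 8 dermal fibroblast genes, 6 were called lower in PAP, with sums of 138741 to 307356 in CHR and 5496 to 161885 in PAP, and 3 higher in SCC vs PAP (1 in limma-voom). Of 8 keratinocyte genes, 1 was called lower and 5 higher in PAP. Their part in the results for the members was not tested.

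Some libraries at the ends of the member ranges stood at the ends of these sums, and others did not. The SCC of mouse 10, lowest for Scn7a and Pmp22, had the lowest muscle sum of the carcinomas (545, the others 77351 to 205093) and the lowest fibroblast (17963) and myeloid (3215) sums. The SCC of mouse 7, highest for 4 members, had the highest myeloid sum, 43312, but its muscle (134785) and fibroblast (286483) sums were below those of mouse 2 (205093 and 497511). The SCC of mouse 9, lowest for Egr2, ranked next above mouse 10 in all 3 sums (muscle 77351, fibroblast 121675 and myeloid 8619.7). The PAP of mouse 10, lowest for Scn7a, Pmp22 and Egr2, had the lowest muscle (358), fibroblast (5496) and myeloid (979) sums of the papillomas. The PAP of mouse 2, highest for Scn7a and Pmp22, had the highest muscle sum of the papillomas. Its fibroblast (53534) and myeloid (5615) sums were below those of mouse 9 (161885 and 6595). Without mouse 10, the log2 fold changes in SCC vs CHR were -1.97 for Scn7a, -1.70 for Pmp22 and -2.21 for Egr2 (limma adjusted p = 0.00709, 0.000663 and 0.00494). T cell genes were called lower in 5 of 5 cases and adipocyte genes in 6 of 7 in PAP vs CHR. Of 7 endothelial genes, 4 were lower and 1 higher, and of 5 smooth muscle and pericyte genes 4 were lower. None of 6 oligodendrocyte markers was measured, so the glia of the brain, which share Mbp, Cnp and Mal, could not be set beside them.

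**Figure D4:**
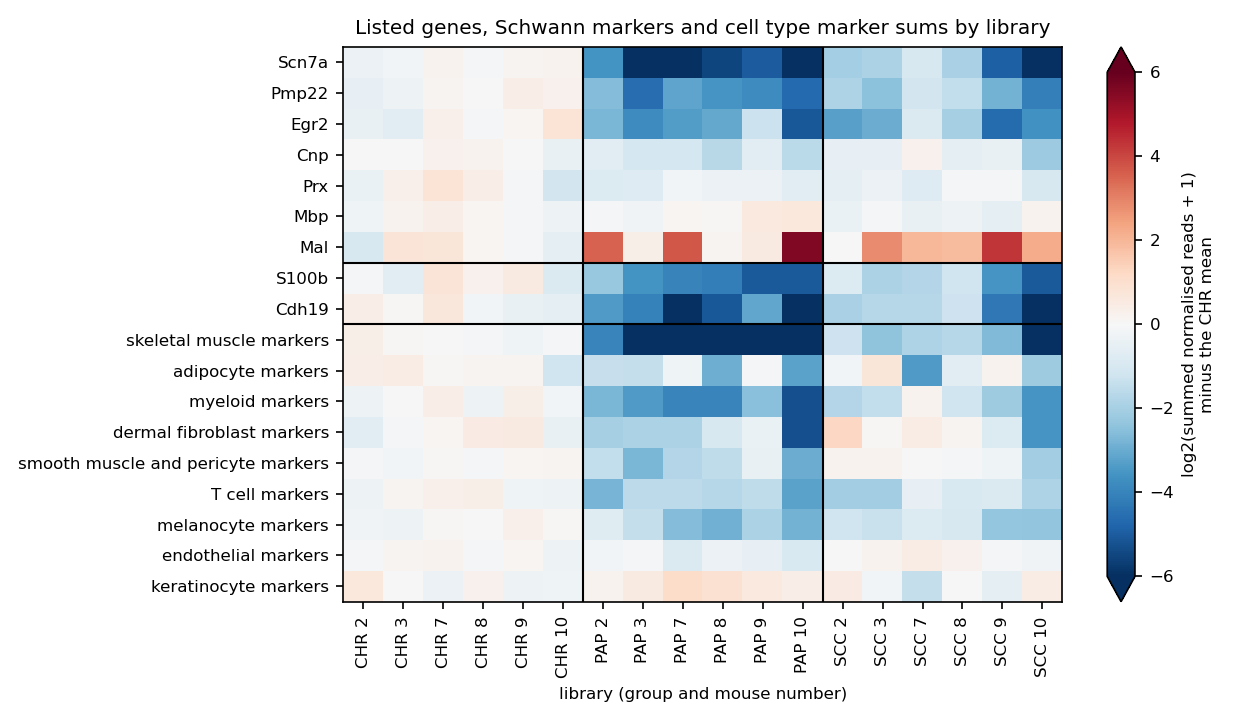
Log2(summed normalised reads + 1) minus the CHR mean in each of 18 libraries for the 7 members, for S100b and Cdh19, and for marker sums of 9 other cell types, with blue for lower and red for higher, colours ending at 6 in either direction. Scn7a, Pmp22, Egr2, S100b and Cdh19 are blue in all lesions, as are the skeletal muscle, T cell and melanocyte sums. The myeloid sum is blue in all lesions but the SCC of mouse 7. The Mbp row stays pale and the Mal row turns red in most lesions.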

How the data were processed

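RNA of whole skin and lesions was sequenced in 18 libraries, and groups and mouse numbers were read from the sample titles. The members and gene lists were chosen with earlier results of these data known. The authors aligned the reads to mm10, counted them per gene with HTSeq, scaled the counts and applied a variance-stabilizing transformation, and they also mention a scaling of batch medians. Versions and the strand setting are not given in the sources used here. The deposited values are a rounded score on the linear scale of that transformation, in which 0 reads appear as 39. The table has 14542 entries, of which 21 have a number for a name, hold at most 0.236% of a library's total and were left out. Reads were recovered by inverting the transformation, and 99.2% of values came out as the exact rounded value of a whole read count, with size factors of 0.835 to 1.18.

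Tests were two-sided and used limma 3.58.1 in R 4.3.3 on log2(value + 1), with all 18 libraries, 1 coefficient per group, the mouse as a block and Benjamini-Hochberg adjustment over 14521 genes. The fit was tested on simulated data. The block pairs libraries of the same mouse, whose deviations from the group means had a median correlation of 0.10 (18 pairs), against 0.00 between mice (90 pairs). limma-voom on recovered reads and the other alternatives are given in the closing section. With this block, the p-values rest on how the differences between groups vary over these 6 littermates, with 1 lesion of each kind per mouse. That variation is pooled over all groups and moderated across genes, so a gene has the same SE in every limma comparison. The SE thus does not measure the spread of 1 comparison alone. Named beside the members are up to 4 genes of each list with the largest called change in PAP vs CHR and a set of textbook markers. Genes named outside this rule (Cd9, Cadm4, Nab1, Dnajc7, Gm15541, genes of the axon and pigment lists, and relatives of the members) were chosen after their values were seen. Gene positions, exon lengths and overlaps are from GENCODE M21 and promoters from RefSeq, both for GRCm38, and 13851 of 14521 symbols (95.4%) matched GENCODE. Some of the listed genes enter the counts but are not reported here by name.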

Additional observations from a re-analysis of the deposited data

Results flagged for a closer look

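The carcinoma of mouse 10 stood apart from the other 5 carcinomas in its Cnp level, at 82.4 normalised reads. On log2 of the deposited values, the gap to its nearest neighbour was 0.643 of the whole range of the group, above the limit that Dixon's test sets for 6 samples. On the linear scale of normalised reads the gap was 0.489 of the range, below that limit. Over the 7 members and 3 groups, 21 groups were examined and 1 was marked, and chance marks about 1 in 20. Without this mouse, Cnp was not called in SCC vs CHR (log2 fold change -0.36, limma adjusted p = 0.0999) and was called in SCC vs PAP (0.52, limma adjusted p = 0.0470).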

How the results depend on the processing

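In PAP vs CHR, 4 or 5 members were called under every alternative, and Pmp22, Scn7a, Egr2 and Cnp were called lower in all 16. Without the replicate block, 5 were called in PAP vs CHR, with Mal (1.83, adjusted p = 0.0348) in place of Prx (-0.39, adjusted p = 0.0872). In SCC vs CHR, 4 members were called and the alternatives gave 3 to 5, with Pmp22, Scn7a and Egr2 called in each. Without the replicate block, 3 were called there, as Cnp was lost (adjusted p = 0.0872).

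In SCC vs PAP, 2 members were called, and the count was 0 without the replicate block, 0 in limma-voom, 0 with the 2 groups alone and 1 on log2(normalised reads + 1). Leaving out 1 mouse at a time gave 0 to 3 members in SCC vs PAP, 4 to 5 in PAP vs CHR and 3 to 4 in SCC vs CHR. Over the same settings in SCC vs PAP, the log2 fold change ran from -0.0033 to 0.13 for Prx, from -0.86 to 0.40 for Mal and from -0.13 to 0.79 for Egr2, so that the sign turned, and none of these was called. The cause was not tested. Over all genes, SCC vs PAP gave 1430 calls, against 810 without the replicate block, 854 in limma-voom, 0 with the 2 groups alone (2830 at an unadjusted p under 0.05), and 0 to 1995 when 1 mouse was dropped. Dropping mouse 7 or mouse 8 gave 0 calls, where 2450 and 2594 genes had an unadjusted p under 0.05. No other scaling moved the split of higher and lower calls by more than 10 percentage points. Depth limits the lowest values, since the Scn7a level of the mouse 10 papilloma rests on 1 read.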

Other observations

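Relatives of the members gave a mixed picture. Emp3, of the same tetraspan family as Pmp22, was lower in PAP than in CHR (log2 fold change -2.33 ± 0.33, limma adjusted p = 7.16e-05), while Emp1 (-0.38) and Emp2 (0.12) were not called. Ahnak2, a giant protein related in sequence to periaxin, was lower by -1.37 ± 0.30 (limma adjusted p = 0.00196). Mal2 (0.02) and Mall (0.53), of the Mal family, were not called. Egr1 (0.22) and Egr3 (-0.74), of the family of Egr2, were not called in PAP vs CHR, and Egr3 was lower in SCC vs CHR (-1.11, limma adjusted p = 0.0136).

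Of 6 measured genes of repair Schwann cells, the state that follows nerve injury, 3 were called higher in PAP than in CHR and 1 lower. Artn (1.25), Gdnf (0.65) and Jun (0.47) were higher and Bdnf (-0.85) was lower. In limma-voom, Gdnf (adjusted p = 0.0760) and Bdnf (adjusted p = 0.0549) were not called, which left 2 higher and 0 lower. Melanocytes share the neural crest origin of Schwann cells, and of 7 of their genes 3 were called lower, namely Mitf (-2.60), Ednrb (-1.81) and Kit (-1.63), which mast and endothelial cells also use. The pigment genes Tyr (-0.11), Tyrp1 (-0.54) and Pmel (0.00) were not called. Of 4 measured axon genes, Tubb3 was called higher (1.61), and Nefl (-0.09) and Stmn2 (-0.15) were not called.

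Over 18 libraries, after group and mouse means were taken out, the genes most like Mbp were Snf8, Vps26a and Emid1 (each r = 0.85), Gm527 and Dctn4 (each 0.82), among 14343 genes. Those most like Prx were Hnrnpd (0.91), Irs3 (0.87), Igfals and Prelid2 (each 0.85) and Trpt1 (0.84). Without taking the means out, r was -0.39 for Hnrnpd and 0.59 for Irs3. These are descriptions, as the points share libraries and mice.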
